A study of Mus musculus with 12 samples.

Results

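Interferon regulatory factors (IRFs) are transcription factors that share a DNA-binding domain, and 8 mouse genes of the family, Irf1, Irf2, Irf3, Irf4, Irf5, Irf7, Irf8 and Irf9, were followed here across 4 groups of T cells. The members were taken by name: every probe set whose only gene symbol was 1 of these 8, which gave 14 probe sets for 8 of the 18193 genes that have a probe set of their own. The study asked how cultured CD8+ T cells that carry natural killer cell markers and suppress other T cells, called CD8+ NKT-like cells, differ in expression from other T cells, and measured RNA of 12 samples on Affymetrix mouse arrays, 1 array per sample. The NKT-like group held 5 samples of spleen CD8+ cells expanded with beads that carry anti-CD3 and anti-CD28 antibodies and with much interleukin-2. The cultured CD4+ group held 3 samples of CD4+ cells expanded in the same manner. By the study's methods these were isolated by flow sorting, and CD8+ cells by negative selection. The activated group held 2 samples of CD8+ cells stimulated by soluble anti-CD3 and anti-CD28. The naive group held 2 samples of fresh CD8+ cells that had been isolated by negative selection, so that cells of other types could remain. All mice were female C57BL/6, aged 8 to 12 weeks by the labels. Where cultured CD4+ cells are set against naive CD8+ cells, lineage, isolation and culture cannot be told apart, as fresh CD4+ cells were not analysed here. Between cultured CD4+ and NKT-like cells, lineage and isolation cannot be told apart. NKT-like and activated cells came from different protocols, so the form and dose of the antibodies, interleukin-2 and culture time cannot be told apart between them. Values are the deposited log2 signals, and a difference passed where limma, fitted to all 12 arrays, gave a Storey q-value of 0.01 or less over all probe sets. The study describes its cultures as independent, and the few samples per group, down to 2, limit the precision of every value.

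IRFs bind repeats of GAAA, which form the interferon-stimulated response element (ISRE) upstream of antiviral genes. IRF3, IRF5 and IRF7 are switched on by kinases downstream of virus sensors and Toll-like receptors and induce interferon genes, while IRF9 is the DNA-binding subunit of the complex that answers type I interferon. IRF1 is an activator induced by interferon-γ, and IRF2 binds the same sites and often opposes it. IRF4 and IRF8 are found mainly in immune cells, bind DNA weakly alone and act with partners such as PU.1 or BATF and JUN. In T cells IRF4 follows the strength of the antigen receptor signal.

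The sequences upstream of 4 members are shown because the results below turn on these genes. They come from RefSeq promoter windows of GRCm38.p6 that run from 250 bases before to 50 after each annotated start, and the 250 bases before the start are printed. All 8 members matched, with 11 windows in all, since Irf1, Irf8 and Irf9 have 2 annotated starts and the other 5 genes 1. Of Irf1 and Irf8 the window of the first start is given. The 4 stretches lie on the plus strand at chr8:120736108-120736357 for Irf8, chr13:30748983-30749232 for Irf4, chr11:53769764-53770013 for Irf1 and chr8:46739495-46739744 for Irf2. The genes span chr8:120736358-120756694, chr13:30749233-30766981, chr11:53770014-53778374 and chr8:46739745-46847458 in that order. Capitals mark matches to TTCNNNGAA, the core of the interferon-γ-activated site (GAS), which reads alike on both strands, and to GAAA, any 2 bases and GAAA, the ISRE core, searched on both strands.
Irf8: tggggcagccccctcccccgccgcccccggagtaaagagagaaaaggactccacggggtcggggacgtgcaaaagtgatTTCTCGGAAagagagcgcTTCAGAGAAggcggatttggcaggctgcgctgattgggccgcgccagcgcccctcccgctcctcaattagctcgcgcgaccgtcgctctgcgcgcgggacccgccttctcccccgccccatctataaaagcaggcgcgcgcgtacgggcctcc
Irf4: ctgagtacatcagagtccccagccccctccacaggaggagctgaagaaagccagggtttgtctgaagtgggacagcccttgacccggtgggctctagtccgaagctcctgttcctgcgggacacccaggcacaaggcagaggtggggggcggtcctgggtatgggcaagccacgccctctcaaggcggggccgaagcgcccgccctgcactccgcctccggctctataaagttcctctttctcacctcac
Irf1: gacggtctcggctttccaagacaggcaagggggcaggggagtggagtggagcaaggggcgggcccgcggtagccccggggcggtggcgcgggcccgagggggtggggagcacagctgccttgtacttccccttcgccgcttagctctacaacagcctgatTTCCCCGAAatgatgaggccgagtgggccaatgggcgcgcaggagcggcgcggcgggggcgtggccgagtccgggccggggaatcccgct
Irf2: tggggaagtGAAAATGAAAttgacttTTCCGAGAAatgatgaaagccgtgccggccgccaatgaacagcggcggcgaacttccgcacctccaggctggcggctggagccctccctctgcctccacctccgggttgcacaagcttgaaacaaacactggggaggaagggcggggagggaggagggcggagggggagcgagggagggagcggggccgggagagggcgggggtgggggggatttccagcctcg
The Irf8 stretch held 2 GAS cores, TTCTCGGAA from base 171 and TTCAGAGAA from base 153 before the start. The Irf1 stretch held TTCCCCGAA from base 90, and the Irf2 stretch held TTCCGAGAA from base 224 and the ISRE core GAAAATGAAA from base 241, with no overlap between them. No match to either motif lay in the Irf4 window. A GAS core was found in 3 of the 11 member windows, against 8.3% of 32851 windows of all genes, and an ISRE core in 1 of 11, against 3.44%. These matches describe letters in the windows, and binding was not measured.

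The labelled cell types were visible in the data, and the naive arrays stood apart by some genes of other cells. Cd8b1 averaged 11.61 log2 in NKT-like, 6.79 in cultured CD4+, 11.32 in activated and 11.71 in naive samples, and Cd4 averaged 6.91, 10.00, 6.88 and 7.14 in the same order. Of 9 B cell markers, NKT-like cells had 7, cultured CD4+ cells 6 and activated cells 3 below the naive level. Of all genes 6.61%, 5.58% and 2.68% were lower in the same order. Their mean log2 signal per array lay between 5.71 and 5.99 in NKT-like, 5.65 and 5.85 in cultured CD4+, 6.10 and 6.26 in activated and 7.49 and 7.74 in naive samples, and no marker was at 0 on this scale. Jchain moved most, at 5.65 in NKT-like and 12.92 in naive samples, and Ms4a1 averaged 5.97 and 8.47. Cd79a averaged 6.08 and 6.55 in the same groups, and Pax5, a defining B cell factor, 6.41 and 6.42. The same mean over 5 red cell precursor markers was 6.05 to 6.16 in NKT-like and in cultured CD4+ samples, 6.07 to 6.32 in activated and 7.56 to 7.96 in naive samples. Klf1 and Ermap carried most of that difference, at 6.86 and 6.66 in NKT-like and 11.09 and 9.93 in naive samples, whereas Alas2 and Hba-a1, which define red cell precursors, averaged 5.47 and 5.28 in NKT-like and 5.47 and 5.45 in naive samples. Over 9 macrophage and dendritic cell markers it was 6.79 to 6.98, 6.58 to 6.90 and 6.70 to 7.11 in the NKT-like, cultured CD4+ and activated samples, against 7.06 to 7.13 in naive samples. Fewer cells of a type and less RNA per cell cannot be told apart in such samples. The 2 naive arrays and activated replicate 2 also had a narrower spread of signals, with an SD over probe sets of 1.78 to 1.83, against 1.91 to 2.03 on the other arrays.

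Irf8, a factor of myeloid cells, B cells and effector CD8+ T cells, was high in both stimulated CD8+ groups and low in the other groups. Its probe set 1416714_at measured 11.96, 11.93, 11.23, 11.14 and 12.30 log2 in NKT-like replicates 1 to 5 and 8.21, 9.01 and 9.12 in the cultured CD4+ samples. It measured 12.31 and 11.93 in the activated samples and 8.06 and 7.67 in the naive samples. All 7 stimulated CD8+ samples lay above 11, and the 5 cultured CD4+ and naive samples lay below 9.2, with every cultured CD4+ sample above both naive ones.

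By group mean the order of Irf8 was activated, NKT-like, cultured CD4+ and naive. NKT-like and activated cells overlapped, with a difference of -0.41 and a 95% interval of -1.14 to 0.32 (q = 0.34), which spans 0. The cultured CD4+ and naive samples did not overlap but their difference did not pass, at 0.92 ± 0.36 (SE, q = 0.038). Between the upper and the lower pair of groups the differences were large. NKT-like cells exceeded cultured CD4+ cells by 2.93 ± 0.29 log2 (7.62-fold, q = 0.00016), and cultured CD4+ cells were 10.1-fold lower than activated cells (q = 0.00046). Against naive cells the difference was 3.85 ± 0.33 in NKT-like cells (q = 1.3e-05) and 4.26 ± 0.40 in activated cells (q = 8.5e-05). B cells use Irf8 too, and the part of the B cell markers' shift between groups in the Irf8 values was not tested.

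The other Irf8 probe set, 1448452_at, gave the same order of group means. It measured 11.85, 11.29, 10.93, 10.77 and 12.12 log2 in NKT-like replicates 1 to 5, 7.80, 8.13 and 8.53 in cultured CD4+, 11.66 and 11.21 in activated and 7.77 and 7.89 in naive samples. NKT-like cells were 9.45-fold above cultured CD4+ cells (q = 8.8e-05) and 11.8-fold above naive cells (q = 2.5e-05). Cultured CD4+ and naive samples overlapped in this probe set, at 1.25-fold (q = 0.23).

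Irf4, which in T cells is induced through the antigen receptor, followed another order. Its probe set 1421173_at measured 9.07, 9.72, 8.72, 8.73 and 9.89 log2 in NKT-like replicates 1 to 5 and 11.92, 11.60 and 11.36 in the cultured CD4+ samples. It measured 11.53 and 10.84 in the activated samples and 7.23 and 6.77 in the naive samples. The NKT-like samples formed a level of their own, above both naive samples and below all 5 cultured CD4+ and activated samples.

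By group mean the order of Irf4 was cultured CD4+, activated, NKT-like and naive, and only the upper neighbours were not resolved. Cultured CD4+ and activated cells overlapped, with a difference of 0.44 and an interval of -0.37 to 1.25 (q = 0.44). NKT-like cells were lower than cultured CD4+ cells by -2.40 ± 0.29 log2 (5.28-fold, q = 0.00069) and lower than activated cells by -1.96 ± 0.34 (3.89-fold, q = 0.004). They were higher than naive cells by 2.23 ± 0.34 (q = 0.00046). The call against activated cells was lost without activated replicate 1 (3.06-fold, q = 0.022) or 2 (4.95-fold, q = 0.017), where the spread of the single remaining array was taken from the other groups. The call against naive cells was lost without naive replicate 2 alone (q = 0.018).

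The second Irf4 probe set, 1421174_at, had the same order of group means with smaller differences. It measured 6.86, 7.08, 6.99, 7.03 and 7.69 log2 in NKT-like replicates 1 to 5, 8.58, 8.31 and 8.31 in cultured CD4+, 8.03 and 7.57 in activated and 6.75 and 6.58 in naive samples. NKT-like cells were 2.42-fold below cultured CD4+ cells (q = 0.0018; 0.011 without cultured CD4+ replicate 3), and cultured CD4+ cells 3.34-fold above naive cells (q = 0.00019). Activated cells were 2.20-fold above naive cells (q = 0.009), a call lost in 12 of 19 alternatives. For NKT-like against naive cells the 2 probe sets differed in their call, since this one gave 0.47 ± 0.21 log2 (q = 0.052), although the samples did not overlap. They also differed in their call for NKT-like against activated cells. There 1421174_at gave -0.67 ± 0.21 log2 (1.59-fold lower, q = 0.052), and the samples overlapped.

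**Figure D1:**
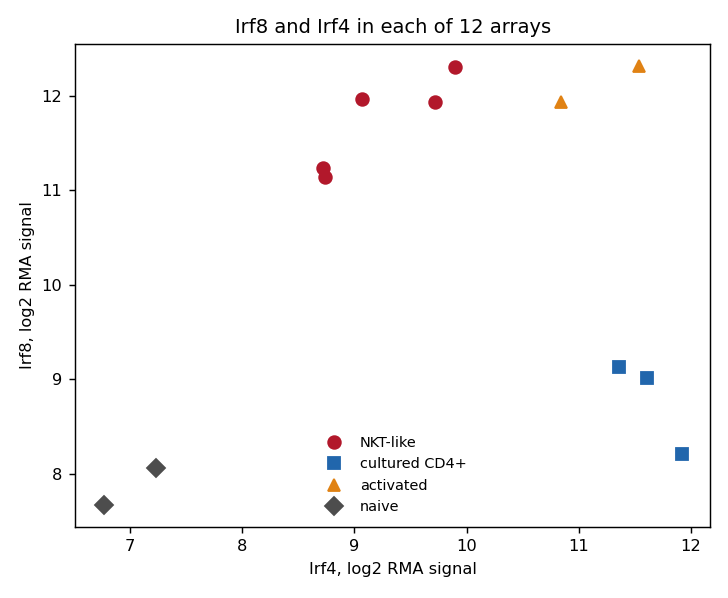
Irf8 against Irf4 on each of the 12 arrays, both as log2 RMA signal, with a symbol for each group. NKT-like arrays lie at 11.14 to 12.30 for Irf8 and 8.72 to 9.89 for Irf4, cultured CD4+ arrays at 8.21 to 9.12 and 11.36 to 11.92, activated arrays high for both and naive arrays low for both.

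The plot of Irf8 against Irf4 showed 4 separate groups of arrays. Over all 12 arrays, which share their groups, Pearson's r between the genes was 0.21. Within the NKT-like group replicate 5 was highest and replicates 3 and 4 were lowest for both genes.

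Irf1, the activator induced by interferon-γ, was lowest in NKT-like cells. Its 1 probe set, 1448436_a_at, measured 9.56, 9.60, 10.31, 9.65 and 9.61 log2 in NKT-like replicates 1 to 5, 11.02, 10.55 and 10.59 in cultured CD4+, 10.73 and 10.28 in activated and 10.98 and 10.32 in naive samples. NKT-like replicate 3 lay above the other 4, just below the lower naive sample and above the lower activated one. Irf1 fell by 0.91 ± 0.24 log2 in NKT-like against naive cells (1.87-fold, q = 0.009). This call was lost in 8 of 12 fits that left out an array (NKT-like replicates 1, 2, 4 and 5, cultured CD4+ replicates 2 and 3, and either naive array), where the fold ranged from 1.49-fold without naive replicate 1 (q = 0.11) to 2.35-fold without naive replicate 2 (q = 0.023). Against cultured CD4+ cells the difference was -0.98 ± 0.21 with no overlap (q = 0.022), and it passed at 2.17-fold without NKT-like replicate 3 (q = 0.0057). Cultured CD4+ and activated cells differed from naive cells by 0.07 (-0.52 to 0.66, q = 0.36) and -0.14 (-0.79 to 0.50, q = 0.52).

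Irf2, the factor that shares sites with IRF1, was lowest in activated cells. Its 1 probe set, 1418265_s_at, which may also bind related transcripts, measured 7.64, 8.13, 8.24, 8.51 and 8.07 log2 in NKT-like replicates 1 to 5, 8.65, 8.41 and 8.23 in cultured CD4+, 7.36 and 6.59 in activated and 8.33 and 8.11 in naive samples. Both activated samples lay below the 10 others, and the other groups overlapped. Cultured CD4+ cells were above activated cells by 1.45 ± 0.26 log2 (2.74-fold, q = 0.0086). That call was lost without NKT-like replicate 2, 3 or 5, any cultured CD4+ array, activated replicate 2 (2.10-fold, q = 0.11) or either naive array. NKT-like cells were 2.21-fold above activated cells and activated cells 2.37-fold below naive cells, both at q = 0.011. Both passed without NKT-like replicate 1 (q = 0.0051 and 0.0083), and the difference from NKT-like cells also did without activated replicate 1 (q = 0.005). Against naive cells NKT-like cells differed by -0.10 (-0.62 to 0.43) and cultured CD4+ cells by 0.21 (-0.36 to 0.78).

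Irf9, which encodes the DNA-binding subunit of the type I interferon response complex, passed in no comparison. Its probe set 1421322_a_at measured 7.20, 7.60, 7.94, 7.91 and 7.46 log2 in NKT-like replicates 1 to 5, 8.95, 8.22 and 7.96 in cultured CD4+, 7.64 and 7.39 in activated and 8.73 and 7.60 in naive samples. All 3 cultured CD4+ samples lay above all NKT-like and activated samples, by -0.75 ± 0.28 for NKT-like minus cultured CD4+ (q = 0.19) and 0.86 ± 0.36 for cultured CD4+ minus activated (q = 0.19). The naive samples were 1.13 apart in this gene, so that the difference of NKT-like from naive cells, -0.55, had an interval of -1.26 to 0.17.

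**Figure D2:**
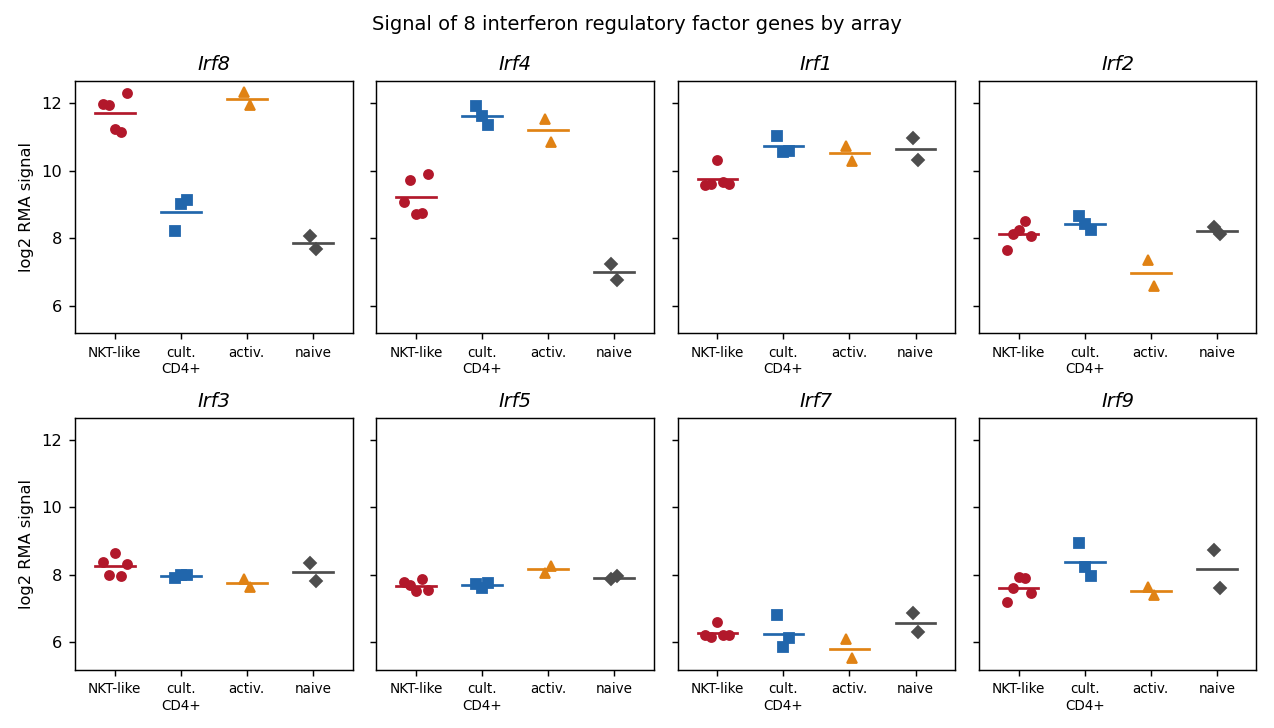
Log2 RMA signal of the 8 genes, 1 probe set each, in the NKT-like (n = 5), cultured CD4+ (n = 3), activated (n = 2) and naive (n = 2) samples; each point is an array and each bar a group mean. Irf8 and Irf4 span the widest range between groups, and Irf3, Irf5 and Irf7 the narrowest.

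The factors that act downstream of sensors moved least. Irf3, which is present in most cells before infection, measured 7.96 to 8.63 log2 in NKT-like, 7.90 to 8.00 in cultured CD4+, 7.66 to 7.88 in activated and 7.82 to 8.36 in naive samples by probe set 1416898_a_at. None of its 6 comparisons passed, and the interval of NKT-like against naive cells was -0.25 to 0.59. Of its 3 other probe sets, 1435271_at alone had a call: it averaged 6.95 ± 0.14 in NKT-like, 6.82 ± 0.22 in cultured CD4+, 7.07 ± 0.28 in activated and 7.49 ± 0.17 in naive samples (SD), and cultured CD4+ cells were 1.59-fold lower than naive cells (q = 0.0067), a call lost in 9 of 19 alternatives, either naive array left out among them. For that comparison 1426111_x_at and 1438721_a_at gave 0.02 and -0.11 log2, so the probe sets did not agree.

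Irf5, a factor of Toll-like receptor signalling in myeloid cells, gave opposite signs in its 2 probe sets, except for activated against naive cells. That difference was 0.24 log2 in 1449678_at and 0.31 in 1460231_at (q = 0.21 and 0.14). By 1449678_at it measured 7.52 to 7.87 log2 in NKT-like, 7.62 to 7.76 in cultured CD4+, 8.07 and 8.26 in activated and 7.89 and 7.96 in naive samples. Activated samples were highest and did not overlap any group, with NKT-like cells lower by -0.48 ± 0.12 (q = 0.02), and no comparison passed. By 1460231_at it measured 7.35 to 7.74 in NKT-like, 7.42 to 7.57 in cultured CD4+, 7.17 and 7.45 in activated and 7.02 and 6.98 in naive samples. In this probe set NKT-like cells were 1.48-fold and cultured CD4+ cells 1.42-fold above naive cells (q = 0.0028 and 0.0078), against 0.848 and 0.859 times the naive level in the other (q = 0.065 and 0.097). Both calls were lost without naive replicate 1 or 2, and a direction for Irf5 was therefore not settled.

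Irf7, the factor that amplifies interferon production, had signals near the median of all values, 6.30. Its probe set 1417244_a_at measured 6.22, 6.17, 6.60, 6.22 and 6.22 log2 in NKT-like replicates 1 to 5, 6.80, 5.85 and 6.12 in cultured CD4+, 6.10 and 5.53 in activated and 6.86 and 6.30 in naive samples. The groups overlapped except activated cells with NKT-like and naive cells, and the widest difference, -0.77 ± 0.30 for activated minus naive, did not pass (q = 0.089).

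**Figure D3:**
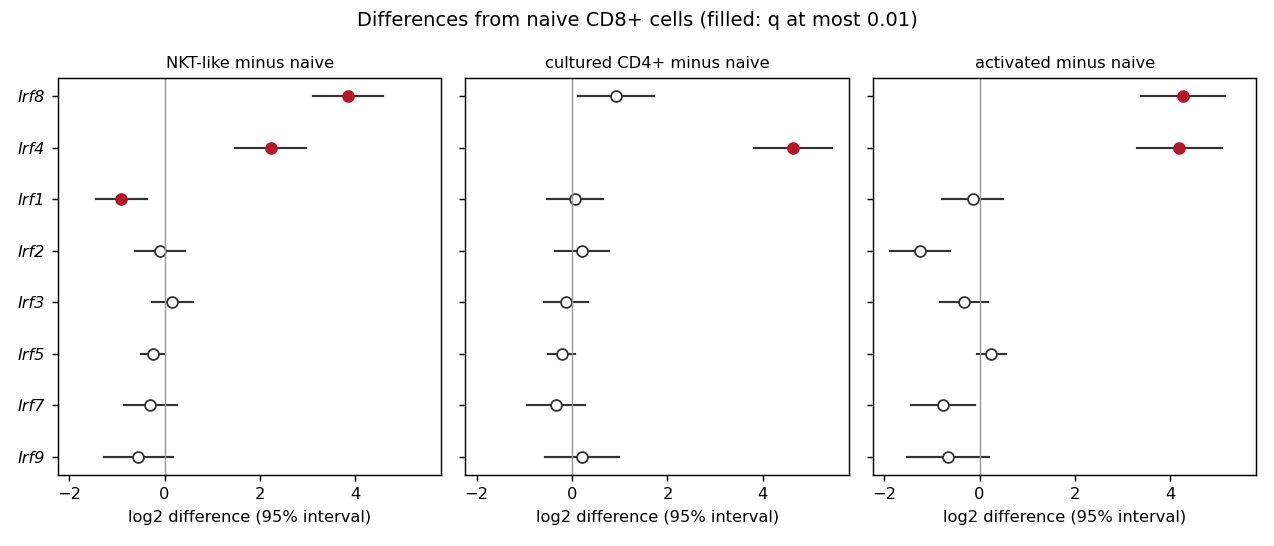
Log2 differences of 8 genes from naive CD8+ cells in NKT-like, cultured CD4+ and activated cells, with 95% intervals of the limma fit; filled points passed at q ≤ 0.01. Irf4 lies to the right of 0 in all 3 panels, Irf8 far to the right for NKT-like and activated cells only, and Irf1 to the left for NKT-like cells.

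Counted over the family, NKT-like cells had 2 of 8 genes above the naive level (Irf4 and Irf8) and 1 below it (Irf1), where 11.0% of all genes were higher and 6.61% lower. Irf4 was above naive in cultured CD4+ cells and no other member passed, with 11.6% of all genes higher and 5.58% lower. In activated cells Irf4 and Irf8 were higher, with 4.35% of all genes higher and 2.68% lower. These 3 comparisons share the 2 naive arrays. The median log2 difference over the members was -0.17, 0.14 and -0.23 in NKT-like, cultured CD4+ and activated cells, against -0.05 over all genes in each. Without naive replicate 2 only Irf8 still passed in NKT-like cells, as the calls of Irf1 and Irf4 were then lost.

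Among the stimulated groups the calls were fewer, and so was the background. NKT-like cells had Irf8 higher and Irf4 lower than cultured CD4+ cells, where 1.21% of all genes were higher and 1.80% lower. Irf4 alone passed between NKT-like and activated cells, as lower, with 3.34% of all genes higher and 0.934% lower. Between cultured CD4+ and activated cells Irf2 was higher and Irf8 lower, with 1.48% of all genes higher and 0.319% lower. For NKT-like against activated cells the count of calls was 0 without activated replicate 2 and 2 without NKT-like replicate 1.

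**Figure D4:**
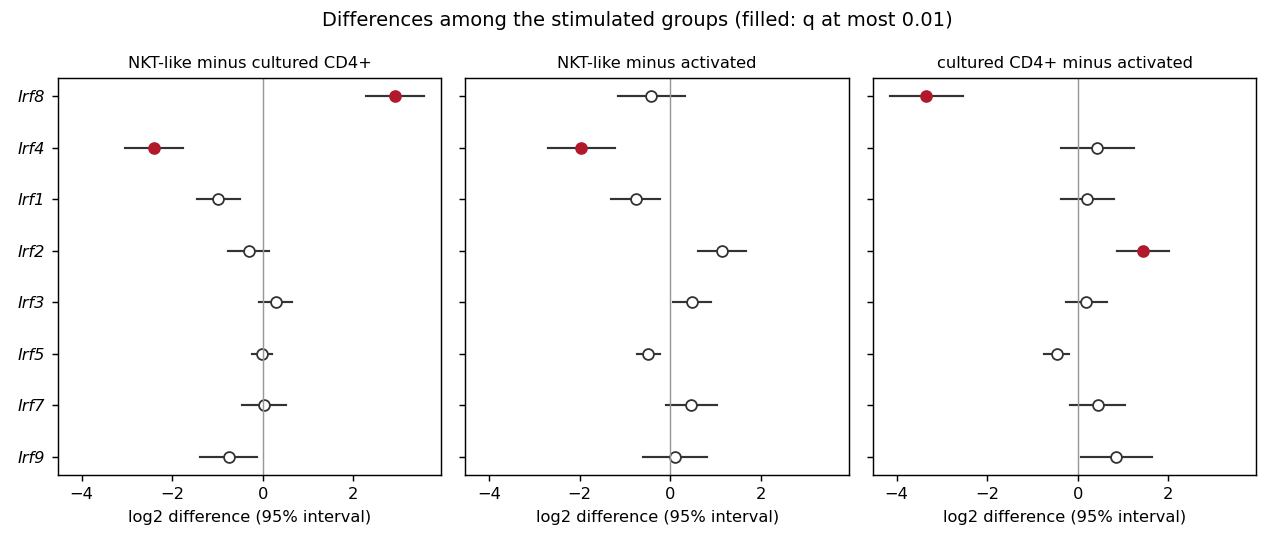
Log2 differences of 8 genes among the stimulated groups, with 95% intervals; filled points passed at q ≤ 0.01. Irf8 and Irf4 lie on opposite sides of 0 for NKT-like minus cultured CD4+ cells, at 2.93 and -2.40.

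Genes with the most similar pattern over the 12 arrays were sought among 4092 genes whose group means spanned at least 1 log2 unit, for the 3 members with such a span. For Irf8 these were Serpinb9, an inhibitor of granzyme B, Wdr36 and Ide, with Pearson's r of 0.94, 0.93 and 0.93. For Irf4 they were Hmgb2, Naa20 and Pcna, a clamp of DNA replication, each at 0.96. For Irf2 they were Rnf215, Snx20 and Dexi at 0.94, 0.94 and 0.93. The arrays share groups and cultures, so these values describe likeness only.

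Upstream of the family, the interferon genes differed mainly in Ifng, which encodes interferon-γ. Ifng averaged 10.03 ± 1.80 log2 in NKT-like, 10.00 ± 2.74 in cultured CD4+, 12.36 ± 0.11 in activated and 4.35 ± 0.0048 in naive samples (SD), the last near the low end of the scale, so that its folds depend on the background too. NKT-like cells exceeded naive cells 51.2-fold (q = 0.0048), the single gene of 6 to be higher, while Ifna1 was lower at 0.651 times the naive level (q = 0.0022) and 4 did not pass. Without either naive array neither call passed. NKT-like samples ranged from 7.85 to 11.80 for Ifng, and cultured CD4+ samples from 6.84 to 11.65.

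The shares of all genes called, given above for each comparison, apply to these lists as well: 11.0% were higher and 6.61% lower in NKT-like cells relative to naive cells. Of 10 measured receptors, JAK-STAT transducers and inhibitors, NKT-like cells had 3 below the naive level. Usp18, which damps type I interferon receptor signalling, was at 0.170 times the naive level (q = 0.00076), Ifngr2, a chain of the interferon-γ receptor, at 0.440 (q = 0.00092) and the kinase gene Jak2 at 0.547 (q = 0.0041). Jak2 was also at 0.216 times the cultured CD4+ level (q = 2.5e-05). The count fell to 1 without naive replicate 1 or 2. In cultured CD4+ cells 1 of the 10 was higher than naive and 2 lower, and Jak2 was the one higher, at 2.53-fold.

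Of 14 measured sensors, adaptors and kinases, NKT-like cells had 2 above and 1 below the naive level, counts near those that the shares over all genes (11.0% and 6.61%) give for a list of this size. Mavs, the mitochondrial adaptor of RNA sensors, was 1.73-fold higher (q = 0.0022) and Ticam1, an adaptor of Toll-like receptors, 1.46-fold higher (q = 0.0035). Ifih1, a sensor of double-stranded RNA, was at 0.475 times the naive level (q = 0.0027) and at 0.245 times the cultured CD4+ level (q = 0.00012). Without naive replicate 2 none of the 14 passed against naive cells.

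Of 17 genes for DNA-binding partners of IRFs, NKT-like cells had 4 above and 2 below the naive level. Batf3, a partner of IRF8 in dendritic cells, was 6.36-fold higher (q = 1.3e-05), and it was also 7.54-fold and 9.68-fold higher in cultured CD4+ and activated cells. Jun was 5.82-fold, Batf 2.23-fold and Jund 2.14-fold higher (q = 0.006, 0.0071 and 0.0087). These 3 calls were lost in 8, 9 and 13 of 21 alternatives in that order, either naive array left out among them. Spib and Spi1, which encodes PU.1, were lower at 0.563 and 0.590 times the naive level (q = 0.00097 and 0.00093), in the same direction as the B cell markers. The Spib call was lost without either naive array and the Spi1 call without naive replicate 2, and both with the replicate number as a block. Etv6 and Batf, the partner of IRF4 in T cells, were at 0.282 (q = 0.00013) and 0.310 times the cultured CD4+ level (q = 0.0029). The Batf call was lost without cultured CD4+ replicate 2 or 3.

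Downstream, 9 of 19 antiviral genes with ISREs lay below the naive level in NKT-like cells and 2 above it. Rtp4 was at 0.0771 (q = 4.1e-06), Ifit1 at 0.142 (q = 7.4e-05) and Ifit2 at 0.252 times the naive level (q = 0.00011), all interferon-induced genes, and these 3 calls held in all 21 alternatives. Bst2, which tethers virus particles, and Mx1, a GTPase that blocks influenza virus, went against the rest at 2.75-fold (q = 0.0012) and 2.51-fold (q = 0.0094). The Bst2 call was lost without naive replicate 2 and with the replicate number as a block. The Mx1 call was lost in 11 of 21 alternatives, either naive array left out among them. Without naive replicate 1 or 2, 4 and 5 genes were lower. In cultured CD4+ cells 7 of the 19 were lower than naive and 3 higher, and the median over the list was -0.54 in NKT-like and -0.31 in cultured CD4+ cells, against -0.05 over all genes.

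Of 14 genes for antigen presentation and others linked to IRF1, NKT-like cells had 3 below and 1 above the naive level, and 2 below the cultured CD4+ level. Gbp2, an interferon-γ-induced GTPase, averaged 7.28 ± 0.54 log2 in NKT-like, 12.36 ± 0.25 in cultured CD4+, 11.13 ± 0.43 in activated and 8.93 ± 0.45 in naive samples (SD). It was thus at 0.0297 times the cultured CD4+ level (q = 2.7e-06, in all 21 alternatives) and at 0.320 times the naive level (q = 0.0024, lost without either naive array). Cd74, the invariant chain that B cells also express, was at 0.0935 times and the chemokine gene Cxcl9 at 0.628 times the naive level, while Psmb8, an immunoproteasome subunit, was 3.10-fold higher (lost without either naive array). Cd274, which encodes PD-L1, was at 0.479 times the cultured CD4+ level (q = 0.0025, lost without cultured CD4+ replicate 2 or 3). Without naive replicate 1 or 2 a single gene of the list was lower than naive. The part of the B cell genes in these differences from naive cells was not tested.

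Of 15 genes linked to IRF4 in activated T cells, NKT-like cells had 7 above and 1 below the naive level, and cultured CD4+ cells 9 above and 2 below. In NKT-like cells Il10, a suppressive cytokine, was 47.2-fold and Maf 10.2-fold higher than naive, and Id2 and Prdm1, factors of effector cells, 6.94-fold and 6.18-fold. The Maf call (q = 0.0084) was lost in 14 of 21 alternatives, where its fold ranged from 3.77 to 14.8. Id3, a factor of less differentiated cells, was at 0.217 times the naive level. All of these but Maf held in all 21 alternatives, and without either naive array 4 genes of the list were higher. The 2 cytokines Il4 and Il21 were at 0.0151 and 0.0213 times the cultured CD4+ level in NKT-like cells (q = 2.6e-07 and 5.5e-09), and Eomes, a T-box factor of cytotoxic cells, went against them at 35.2-fold (q = 8.9e-08). Il4 and Il21 averaged 5.61 and 4.97 log2 in NKT-like cells, and Il10 5.20 in naive cells, all below the median of all values, so that these folds depend on the background. In activated cells 1 of the 15 passed as higher, near the 4.35% of all genes. The median over the list was -0.0027 in these cells, against 0.74 in NKT-like and 2.39 in cultured CD4+ cells. Irf4 was 18.2-fold above naive in activated cells, which also differ from the cultures in their stimulus. A part of IRF4 in the values of the list was not tested.

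**Figure D5:**
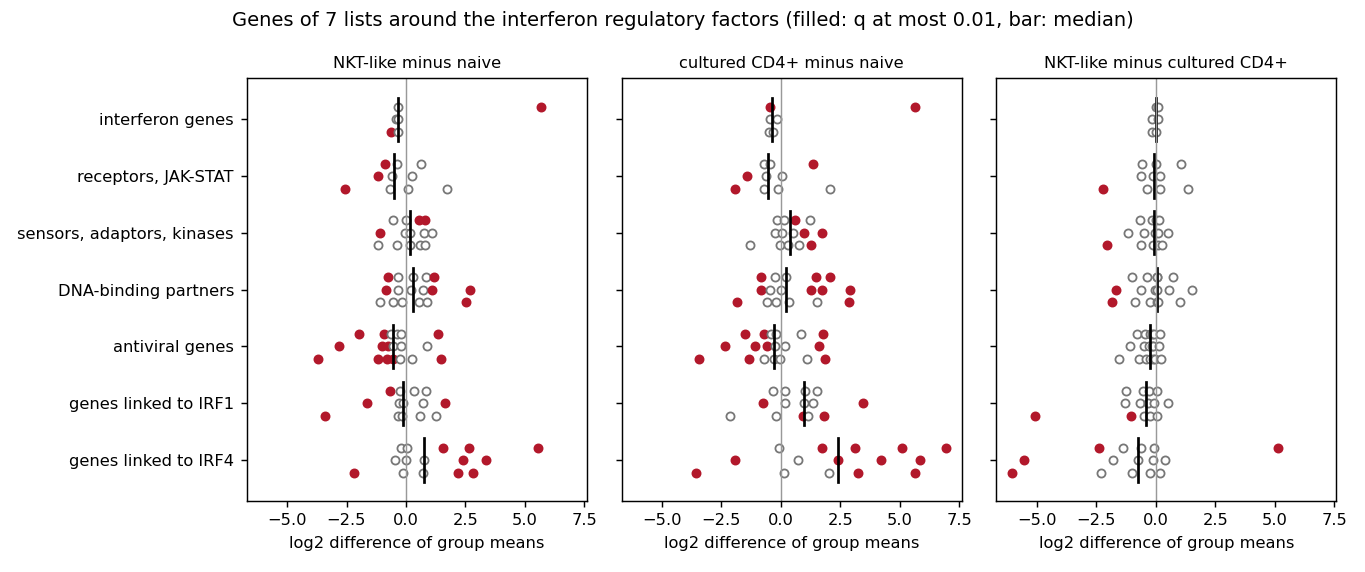
Log2 differences of the genes of 7 lists for NKT-like minus naive, cultured CD4+ minus naive and NKT-like minus cultured CD4+ cells; each point is a gene, filled where q ≤ 0.01, and each bar a list's median. The antiviral genes lie mostly left of 0 against naive cells, and the genes linked to IRF4 have the widest range between NKT-like and cultured CD4+ cells.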

How the data were processed

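The deposited values are log2 signals from the authors' RMA run (background correction, quantile normalization, summary per probe set). Its version, and whether all 12 arrays were normalized together, are not given in the sources used here. NKT-like replicate 2 had 46 to 110 probe sets with a value identical to that on another array. Pairs of the other arrays had 209 to 914 such probe sets, and the cause was not tested. Scanner files were not used, so another background correction and scan batches could not be tried. Of 45101 probe sets 64 controls were left out and 45037 tested; 34945 have 1 gene symbol. Each gene stands as its brightest probe set on average over all samples, and as one marked as binding several sequences only where it has no other. The log2 values were fitted with limma 3.58.1 in R 4.3.3 with a mean per group over all 12 arrays (8 residual and 3.03 prior degrees of freedom), for 6 pairwise comparisons. Code written here gave Storey q-values for each comparison, and a difference passed at q ≤ 0.01 at any fold. Folds are ratios of means on the log2 scale; ± gives an SD over samples or an SE of the fit, as named. The fit was tested on simulated data. Figures and motif searches used Python 3.11.15 and matplotlib 3.10.9.

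The members and the lists of pathway and marker genes were chosen from general knowledge with earlier results of these data known, and the study names Irf4 and Irf8 from these arrays, so their directions are not independent evidence. List genes named are the 4 with the largest passing change in NKT-like against naive cells, the 2 in NKT-like against cultured CD4+ cells, and passing ones against the rest of their list; a few counts needed another comparison's gene. Alternatives were each pair fitted alone, Benjamini-Hochberg adjustment, q ≤ 0.05, quantile normalization, median centring, a filter on dim probe sets, the mean or another choice of probe sets, the replicate number as a block, and each array left out; list genes were added to them after seeing the data. Columns of other samples numbered 0.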

Additional observations from a re-analysis of the deposited data

Results flagged for a closer look

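In the NKT-like group, the only one with 4 or more samples, 3 of 14 member probe sets had a sample far from the others by Dixon's criterion of 0.71 for 5 samples, and chance marks about 1 in 20 groups. For Irf1 it was replicate 3 at 10.31 log2, where the other 4 lay at 9.56 to 9.65. For Irf7 it was again replicate 3, at 6.60 against 6.17 to 6.22. For the Irf4 probe set 1421174_at it was replicate 5 at 7.69 against 6.86 to 7.08; in the other Irf4 probe set the same replicate was highest at 9.89, next to 9.72.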

How the results depend on the processing

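Over 48 differences of single members and 21 alternatives, 1008 values in all, 962 kept their side of the threshold, 14 came to pass, 32 no longer passed and 31 of those without a call changed sign; the cause was not tested. No call changed sign. The calls of Irf8 for NKT-like and activated against naive cells, of Irf4 for cultured CD4+ and activated against naive cells, and of both for NKT-like against cultured CD4+ cells held in every alternative. Of members passing, NKT-like against activated cells gave 1, but 0 with the pair fitted alone and with the replicate block, 2 with the filter and with the mean of all probe sets, and 3 at q ≤ 0.05. Cultured CD4+ against activated cells gave 2, but 1 with the pair alone, Benjamini-Hochberg adjustment, quantile normalization or median centring, and 0 with the replicate block. Cultured CD4+ against naive cells gave 1, and 2 at q ≤ 0.05. With each array left out in turn the counts ran from 1 to 3 for NKT-like against naive cells, 0 to 2 for NKT-like against activated cells and 1 to 2 for cultured CD4+ against activated cells. Whether replicate numbers pair the samples was not settled. Of 13 pairs with the same number 3 correlated above 0.1 in their deviations from the group mean (-0.50 to 0.28). In a group of 2 the deviations mirror each other, so naive and activated samples gave the same value, 0.28, under both numbers. Median centring moved NKT-like and cultured CD4+ cells by 0.12 and 0.13 log2 against naive cells, and Irf1 then missed the threshold (q = 0.023). Of 28 list genes named for NKT-like against naive cells, 8 kept their call in all alternatives and 20 lost it without a naive array. Of 9 named for NKT-like against cultured CD4+ cells, 6 kept it, while Ifih1, Batf and Cd274 lost it with the replicate block, Batf and Cd274 also without cultured CD4+ replicate 2 or 3.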
